A study of Homo sapiens with 191 samples.

Results

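The CIITA and SOCS1 neighbourhood is the stretch of human chromosome 16, band 16p13, that holds CIITA, DEXI, CLEC16A and SOCS1 in that order. Accessible regions were taken as members when their centre lay between 50 kb before the first base of CIITA and 50 kb after the last base of SOCS1 (chr16:10910079-11400061, hg19, 490.0 kb). The rule used position alone and kept 42 of 50000 regions, from a total of 1707 on chromosome 16. They were numbered 1 to 42 along the chromosome, and each is a window of fixed width, about 500 bp, around a summit, the point of strongest signal in a called peak.

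Chromatin accessibility was profiled by ATAC-seq, in which a transposase inserts adapters into open DNA, in single GM12878 cells. GM12878 is a lymphoblastoid line derived from the B cells of 1 donor by Epstein-Barr virus, so a single line stands for B cells here. The cells were fixed, permeabilised and transposed without antibody staining, and then sorted into single wells, which gave 96 libraries from plate 1 and 95 from plate 2, all of 1 group with no other treatment. The regions were called once on the pooled cells, so there was no value per cell or per plate, no replicate and no second group, and the list gives no read depth. Each region has a score, the −log10 of its q-value, which ranks how far its signal stood above background in that pool. Every value below is therefore a description, and intervals (95%, exact) cover counting error only. For the labelled cell type, the B cell markers MS4A1, CD79A, CD79B, PAX5 and EBF1 had a region within 1 kb of a transcription start site (TSS), with best scores of 106.3, 34.7, 49.1, 82.1 and 231.4, as had 57.2% of all protein-coding genes. This was also true of 0 of 3 T cell markers, 0 of 3 erythroid markers and 2 of 3 myeloid markers (CD14, score 33.1, and LYZ, score 18.7).

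CIITA is the transactivator that switches on MHC class II genes. It binds no DNA by itself and is recruited by RFX, NFY and CREB proteins that sit on class II promoters, and its own transcription starts from alternative promoters with distinct cell-type use: promoter III is the one known from B cells and promoter IV the one known from interferon-γ induction. SOCS1 is induced by cytokine signalling through JAK and STAT proteins and shuts that signalling down again. CLEC16A takes part in endolysosomal traffic and mitophagy, and its introns carry variants associated with autoimmune disease. DEXI was first described as a transcript induced by dexamethasone. CIITA and CLEC16A lie on the plus strand, DEXI and SOCS1 on the minus strand.

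Sequences are shown for the 3 strongest distal regions of the neighbourhood (regions 38, 42 and 4), the strongest region in a CLEC16A intron (region 23) and the upstream part of the CLEC16A and SOCS1 promoter regions (regions 19 and 40). All are GRCh37 and are written 5′ to 3′ in lower case, with capitals where 1 of the 18 searched motifs matched. Region 38, the strongest of the 42, is shown for chr16:11319325-11319475, plus strand, and its capitals mark an SP or KLF, an NFY and an interferon response element match, each on the minus strand.
Region 38: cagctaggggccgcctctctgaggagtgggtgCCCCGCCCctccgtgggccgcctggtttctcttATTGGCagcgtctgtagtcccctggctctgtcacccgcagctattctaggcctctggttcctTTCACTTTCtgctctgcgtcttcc
Region 42, in an intron of RMI2, is shown for chr16:11391599-11391749, plus strand, and holds an EBF1 match.
Region 42: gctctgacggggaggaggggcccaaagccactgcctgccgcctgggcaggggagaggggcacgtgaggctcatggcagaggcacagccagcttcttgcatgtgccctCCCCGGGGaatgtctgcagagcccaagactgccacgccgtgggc
Region 4, ahead of CIITA, is shown for chr16:10936926-10937076, plus strand, with an E2A match (on the minus strand), an NF-kB match and an interferon response element match in that order.
Region 4: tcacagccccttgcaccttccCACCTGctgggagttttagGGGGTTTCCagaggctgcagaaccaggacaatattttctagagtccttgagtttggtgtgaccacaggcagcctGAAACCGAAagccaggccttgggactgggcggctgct
Region 23, in CLEC16A, is shown for chr16:11059618-11059768, plus strand, and no motif matched in this stretch.
Region 23: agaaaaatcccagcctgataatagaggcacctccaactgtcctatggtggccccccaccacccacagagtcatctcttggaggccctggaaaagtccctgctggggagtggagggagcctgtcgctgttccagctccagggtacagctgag
The CLEC16A promoter is shown for chr16:11038196-11038395, plus strand, which ends at the base before the gene's first TSS, and no motif matched.
CLEC16A promoter: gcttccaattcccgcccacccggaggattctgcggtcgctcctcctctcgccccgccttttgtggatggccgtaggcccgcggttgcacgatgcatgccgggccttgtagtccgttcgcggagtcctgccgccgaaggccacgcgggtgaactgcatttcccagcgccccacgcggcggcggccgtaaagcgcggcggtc
The SOCS1 promoter is shown for chr16:11350062-11350261 on the minus strand, read as the gene is read and ending at the base before its first TSS. Its capitals mark an EBF1 match, an interferon response element match and then 2 SP or KLF matches.
SOCS1 promoter: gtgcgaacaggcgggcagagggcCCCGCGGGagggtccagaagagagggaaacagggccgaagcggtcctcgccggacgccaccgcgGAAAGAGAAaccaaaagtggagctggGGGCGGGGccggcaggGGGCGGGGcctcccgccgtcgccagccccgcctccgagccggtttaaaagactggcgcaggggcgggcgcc

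The neighbourhood was dense in accessible regions. It held 8.57 regions per 100 kb (6.18 to 11.6), against 2.16 on chromosome 16 (2.06 to 2.27) and 1.76 in the whole list (1.75 to 1.78), where bases that the reference leaves unread were not counted. When the chromosomes were laid out in fixed tiles of the same length, 2 tiles on chromosome 16 (1.09%) and 46 of 6187 tiles of chromosomes 1 to 22 and X (0.743%) held 42 regions or more. The median tile held 5 regions on chromosome 16 and 6 over all chromosomes (quartiles 2 and 11), and the fullest tile held 73. Unlike the densities, the tiles include the unread bases, which can hold no region. Neighbouring centres were 5.03 kb apart at the median, against 16.4 kb in the list, and 8 of these gaps were under 1 kb, down to 0.538 kb. Regions of the list do not overlap, so centres cannot lie closer than the region width of about 500 bp. Only 6 of the 42 regions (14.3%) had no neighbour within 10 kb, against 37.9% of the list.

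**Figure D1:**
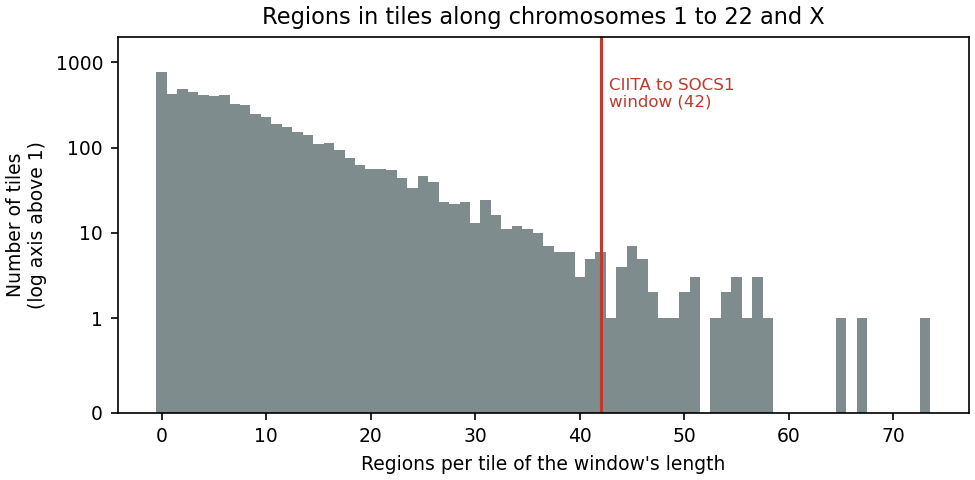
Number of tiles (vertical axis, spaced as a log scale above 1 and linear below it) by the number of accessible regions a tile holds (horizontal axis), for tiles of the neighbourhood's length on chromosomes 1 to 22 and X. The red line marks the neighbourhood at 42 regions, a count that 46 of 6187 tiles reached, against a median of 6.

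The scores of the 42 regions lay in the middle range of the list. Their median score was 35.5 (30.1 to 47.4), against 31.6 in the list, and their scores ran between 17.3 and 125.7. Of the 42, 26 (61.9%) scored above the list's median (48.5% of the list), 7 (16.7%) reached its upper quartile of 74.9 (25.1% of the list) and 0 reached 205.6 (10.07% of the list), where 0 of 42 allows a share of up to 7.14% as a floor of 3 counts and up to 8.41% by the exact interval. Promoter regions, within 1 kb of a protein-coding TSS, made up 6 of the 42 (14.3%), against 32.7% of the list. Their median score was 45.0 (25.7 to 115.9) against 64.3 for promoter regions of the list, a value within that interval. The other 36 regions, called distal here, had a median of 34.7 (quartiles 25.0 and 54.9) against 25.7 for distal regions of the list (quartiles 18.7 and 45.8). The distal members comprised 23 regions in introns, 11 between genes and 2 in exons, where only protein-coding genes were counted.

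**Figure D2:**
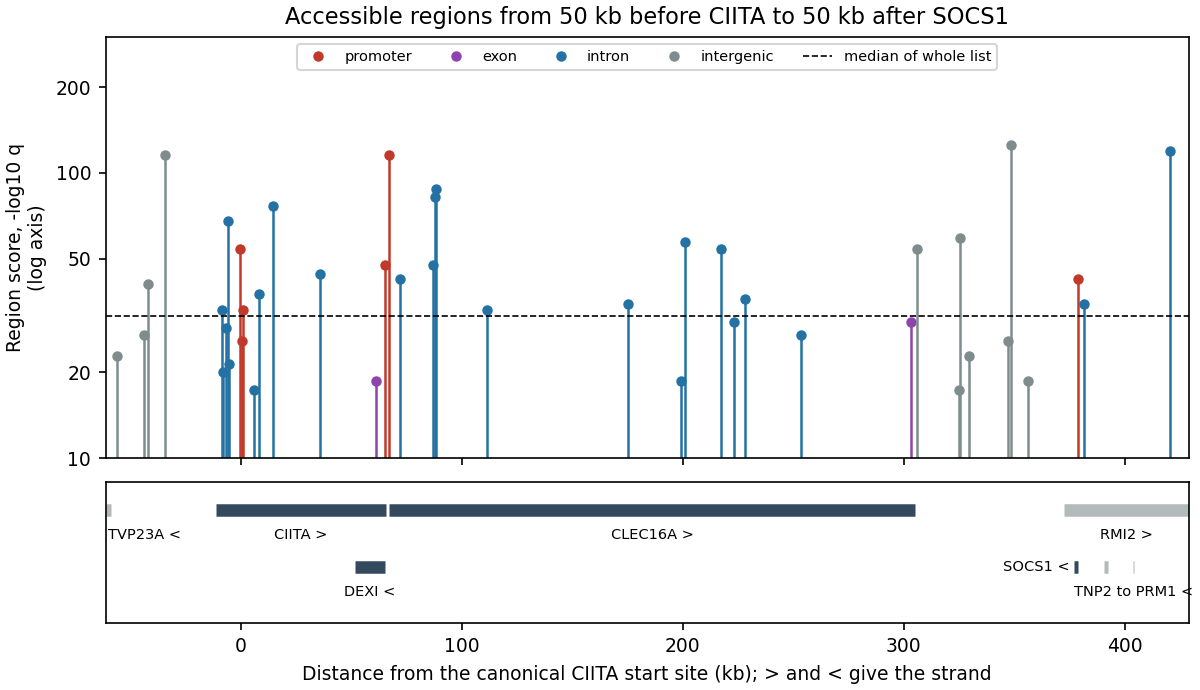
Score of each of the 42 regions (upper panel, −log10 q-value on a log axis) by distance of its centre from the canonical CIITA start site (kb), coloured by class, with the list's median of 31.6 as a dashed line and the protein-coding genes in the lower panel. PRM2 and PRM3, which lie between TNP2 and PRM1, are not drawn. Regions crowd at the 5′ end of CIITA, and the tallest are region 38 (125.7) between CLEC16A and SOCS1, region 42 (119.8) in RMI2, and regions 4 and 19 (115.9 each).

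**Figure D3:**
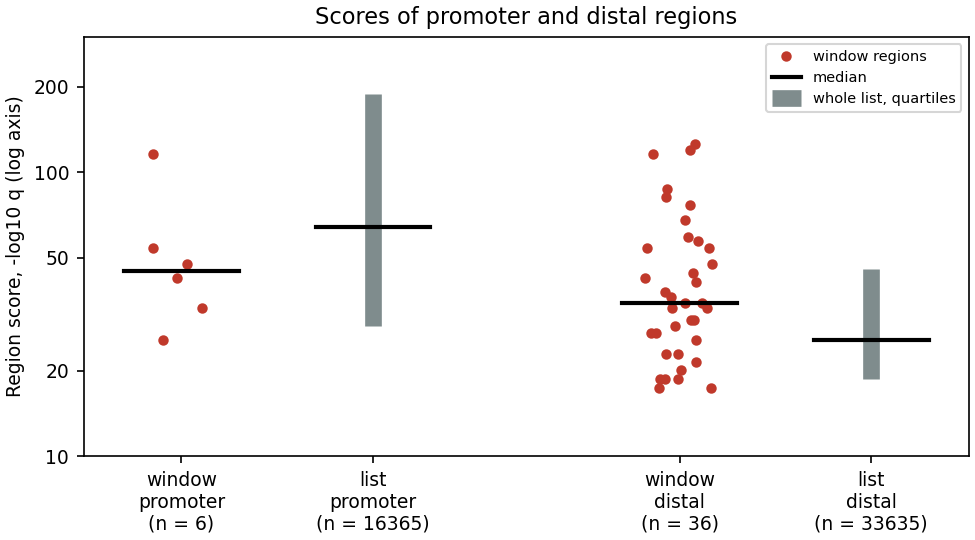
Score of each region (−log10 q-value, log axis) for promoter and distal members of the neighbourhood beside the median and quartiles of the same class in the list. The 6 promoter members centre on 45.0 (25.7 to 115.9) against 64.3 in the list, and the 36 distal members on 34.7 (27.2 to 47.4) against 25.7.

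The caller numbers its peaks along each chromosome, and the numbers give a view of the weaker peaks that the list left out. Of the called peaks that the members' numbers span, 36 (20.2%, 14.6 to 26.9) kept at least 1 summit among the 50000, against 8.60% on chromosome 16 and 8.54% over all chromosomes. The share was 11 of 48 numbers (22.9%) within CIITA, 11 of 59 (18.6%) within CLEC16A and 6 of 25 (24.0%) between CLEC16A and SOCS1. A span that starts and ends on a listed peak, as each of these does, holds at least its 2 end peaks. In 4 called peaks more than 1 summit was listed: 3 summits each in regions 7 to 9 and 21 to 23, and 2 each in regions 10 and 11 and in regions 34 and 35.

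Just inside the left edge lay region 1, with a score of 22.8, 5.16 kb from the edge, and just outside it, 40.1 kb away, a region with a score of 17.3. At the right edge region 42 lay 8.39 kb inside, and a region with a score of 34.7 lay 2.84 kb outside.

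CIITA held 14 region centres, from 11 called peaks, within its annotated body of 76.8 kb, or 18.2 per 100 kb (9.97 to 30.6). These include regions 17 and 18, which also lie in or at DEXI. Among 20090 protein-coding genes the median was 1 region per body, and 248 genes (1.23%) had 14 or more. The regions were packed at the 5′ end: regions 5 to 15, 11 in all from 8 called peaks, followed each other with no gap over 10 kb. They formed the largest cluster of the neighbourhood. In the list, 0.567% of 28738 clusters held as many. The 10.98 kb between the first annotated start of CIITA and its canonical start held 6 of these regions, or 54.6 per 100 kb (20.1 to 118.9). These 6 came from 4 called peaks, and the intervals count each summit as separate although summits of 1 peak are not separate observations.

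The annotation gives CIITA 20 transcripts, whose starts fall into 9 groups when starts up to 500 bp apart are joined. It does not number the promoters, so the groups are named here by order. Group 1, at 10960079 to 10960117 (2 transcripts), had no region within 1 kb, and its nearest was region 5 at 2341 bp downstream with a score of 33.1. Group 2, at 10971055 to 10971188, holds 9 transcripts, among them the canonical one, which starts at 10971059 and encodes 1130 amino acids. It had 2 regions: region 10 (chr16:10970760-10971260), with a score of 54.1 and its centre 49 bp before the canonical start, and region 11 (chr16:10971333-10971833), with a score of 25.7 and its centre 524 bp after it. Group 3, at 10972826 (2 transcripts), had region 12 (chr16:10972088-10972588), with a score of 33.1, 488 bp upstream. Groups 4 to 9, which start between 10995416 and 11034576, had no region within 1 kb. Thus 3 regions lay at CIITA start sites, and all 3 belonged to groups 2 and 3.

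Region 10 was the strongest CIITA promoter region, but it was modest among promoters. Of 11499 genes with a promoter region, 57.2% of all protein-coding genes, 72.9% had a best score of 54.1 or more, and the median best score was 129.6. It was also not the strongest accessible region of the CIITA cluster. Region 15 (chr16:10985388-10985888), 14.6 kb into the gene in intron 1, scored 76.7, and region 8 (chr16:10964907-10965407), at −5902 bp from the canonical start, scored 67.8. Around region 8, regions 5, 6, 7 and 9 scored 33.1, 20.0, 28.6 and 21.4. In intron 1, regions 13 and 14 scored 17.3 and 37.8. Of the 19 introns of the canonical transcript, 2 held a region. These were intron 1 (17.9 kb, 5 regions, of which regions 11 and 12 are promoter regions) and intron 13 (5.31 kb, region 16 at chr16:11006537-11007037 with a score of 44.2). Together they make up 23.2 of 43.1 kb of intron, and the 17 introns without a region had a median length of 0.848 kb.

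**Figure D4:**
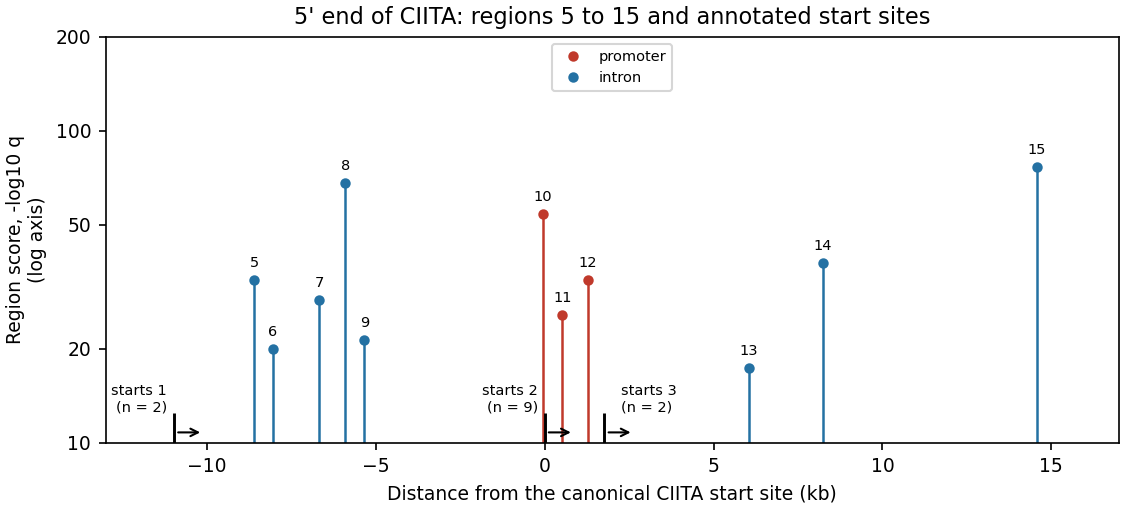
Scores of regions 5 to 15 (−log10 q-value, log axis) by distance from the canonical CIITA start site (kb), with arrows at groups 1 to 3 of annotated starts and their number of transcripts. Regions 10, 11 and 12 (54.1, 25.7 and 33.1) sit at groups 2 and 3, no region sits at group 1, and the tallest are region 15 (76.7) and region 8 (67.8).

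The 5′ end of CIITA overlaps an antisense long non-coding RNA (ENSG00000262151, chr16:10958771-10982609), whose body covers 10 of these 11 regions. None lay within 1 kb of its starts, and the closest was region 15 at 3029 bp. Ahead of CIITA, the flank of 50 kb held regions 1 to 4, of which region 4 (chr16:10936751-10937251) scored 115.9 and lay 23078 bp before the first CIITA start. Region 1 (chr16:10914993-10915493) scored 22.8, region 2 27.2 and region 3 40.9.

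DEXI lies within the annotated body of CIITA, at chr16:11022748-11036325, and starts close to CLEC16A but in the opposite direction. Its promoter region was region 18 (chr16:11036194-11036694), with a score of 47.4 and its centre at 11036444, upstream of the first DEXI start at 11036325. The same bases fall in the last exon of 2 minor CIITA transcripts, one of them annotated for nonsense-mediated decay, so region 18 was counted in the CIITA body too. The only region within the DEXI body was region 17, with a score of 18.7, in the 3′ UTR of a short DEXI transcript and in intron 1 of the canonical one. The CLEC16A promoter region, region 19 (chr16:11038093-11038593), scored 115.9 with its centre 53 bp upstream of the first CLEC16A start. It was the strongest promoter region of the neighbourhood, yet 53.0% of the genes with a promoter region scored as high or higher. For DEXI this share was 76.5%.

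CLEC16A spans 237.6 kb and held 13 regions from 11 called peaks, 12 in introns and 1 in an exon, or 5.47 per 100 kb (2.91 to 9.35). In number this places it near CIITA, with 300 genes (1.49%) at 13 or more, but its regions were spread over a gene that is longer. The 12 intronic regions had a median score of 39.4 and ran between 18.7 and 87.6. They fell in 6 of 23 introns, numbers 1, 3, 10, 18, 19 and 22, which together make up 148.7 of 230.8 kb of intron. The longest intron without a region was intron 11, of 16.9 kb.

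The strongest CLEC16A regions came from 1 called peak in intron 3, an intron of 6.57 kb. Its 3 listed summits, regions 21, 22 (chr16:11058687-11059187) and 23 (chr16:11059443-11059943), scored 47.4, 82.1 and 87.6. Being neighbouring summits of 1 peak, they are not separate observations. Intron 1 held region 20 (42.5), intron 10 region 24 (33.1, chr16:11082106-11082606) and intron 18 region 25 (34.7, chr16:11146167-11146667). Intron 19, the longest at 59.6 kb, held 5 regions from 5 called peaks, or 8.39 per 100 kb (2.72 to 19.6). These were region 26 (18.7), region 27 (57.4, chr16:11171764-11172264), region 28 (54.1, chr16:11187943-11188443), region 29 (30.1) and region 30 (36.2). Intron 22, of 40.2 kb, held region 31 alone (27.2, chr16:11224312-11224812). The last region in the gene, region 32 (chr16:11274256-11274756, score 30.1), lay in the 3′ UTR within exon 24, the last exon. The 2 widest gaps of the neighbourhood, 64.1 kb and 49.9 kb, were both within CLEC16A.

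The 72.2 kb between CLEC16A and SOCS1 held 7 regions, or 9.69 per 100 kb (3.90 to 20.0). Among them was region 38 (chr16:11319150-11319650), whose score of 125.7 was the highest of the neighbourhood and above that of 84.0% of the list. It lay 30657 bp downstream of the nearest SOCS1 start and just past the end of a long non-coding RNA (ENSG00000263033). Region 33 (chr16:11276896-11277396) scored 54.1, region 35 (chr16:11296164-11296664) 59.2, and regions 34, 36, 37 and 39 between 17.3 and 25.7. Regions 34 to 37, 4 of the 7, lay within the body of that long non-coding RNA.

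SOCS1 itself, a short gene, had 1 promoter region and no region centre within its body. Region 40 (chr16:11349859-11350359) scored 42.5 with its centre 48 bp upstream of the nearest SOCS1 start, and 78.7% of genes with a promoter region scored as high or higher. The order of the best promoter scores was thus CLEC16A (115.9), CIITA (54.1), DEXI (47.4) and SOCS1 (42.5), each a single value whose replicate spread is unknown. SOCS1 lies within RMI2, which encodes a subunit of the complex of the BLM helicase and runs in the opposite direction, so region 40 is also intronic to RMI2. Region 41 (34.7) lay 2800 bp upstream of the nearest SOCS1 start, and after a gap of 38.8 kb came region 42 (chr16:11391424-11391924), which scored 119.8 and lay at −41613 bp from the nearest SOCS1 start, upstream of the gene.

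The other protein-coding genes of the neighbourhood had no region within 1 kb of those of their starts that lie in it. The 4 genes of the protamine cluster beside SOCS1 (PRM1, PRM2, PRM3 and TNP2) encode proteins that package sperm DNA. They had 0 promoter regions, where 57.2% of protein-coding genes had one, and their nearest regions lay 10.3 to 17.5 kb away. TVP23A, at the left edge, had a promoter region with a score of 30.1 that lies outside the neighbourhood, and its nearest member was region 1 at 2592 bp. RMI2 had promoter regions with scores of 20.0 and 47.4, both beyond the right edge. Its upstream starts within the neighbourhood were 6603 bp or more from any member.

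Promoter regions of the genes that work with CIITA, and of the SOCS family, were compared with those of CIITA and SOCS1. All 8 genes listed for the MHC class II enhanceosome, CIITA included, had a promoter region, against 57.2% of protein-coding genes. CIITA's score of 54.1 was the lowest of the 8, below NFYC (112.1), RFXANK (157.6), RFXAP (264.3), NFYB (300.1), RFX5 (473.6), NFYA (1310.1) and CREB1 (1612.7). Of the 8 genes of the SOCS family, SOCS1 included, 7 had a promoter region (87.5%, against the same 57.2%). SOCS1 (42.5) stood below SOCS5 (500.3), SOCS4 (180.3), CISH (127.6) and SOCS6 (80.3) and above SOCS2 (37.8) and SOCS7 (20.0). SOCS3 had none, with its nearest region at 3425 bp.

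The SOCS1, DEXI and CLEC16A promoter regions held 75.6%, 67.1% and 64.9% G and C with 59, 49 and 59 CpG dinucleotides. CIITA's regions 10, 11 and 12 held 52.9%, 56.5% and 56.1% with 10, 9 and 7. In CpG number they were closer to the list's distal regions (median 6 CpG) than to its promoter regions (median 36 CpG). In G and C content they lay between the medians of the list's distal regions (48.1%) and promoter regions (62.1%). RefSeq promoter stretches of 300 bases around the gene start (GRCh38.p14) were matched for DEXI, CLEC16A and SOCS1 and each was found once in GRCh37, wholly inside regions 18, 19 and 40. CIITA was not matched. The 36 distal members had a G and C content of 54.6% ± 4.47 (SD over regions), against 49.3% ± 6.66 for distal regions of the list.

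Short consensus motifs were searched on both strands of each region, and a match marks letters, not a bound site. Of 18 motifs, 13 matched in at least 1 member. The interferon response element (GAAANNGAA), bound by IRF and related factors, matched in 10 of 42 regions (23.8%, 12.1 to 39.5), against 15.2% of the list, a share within that interval. In 8 regions it lay within 100 bp of the centre (19.0%, 8.60 to 34.1), against 5.42% of the list. These were regions 4, 6, 7, 10, 28, 29, 38 and 40, which include the main CIITA and SOCS1 promoter regions and both of the strongest regions between genes. The ETS-IRF composite (GGAANNGAA), the joint element of PU.1 and IRF4 or IRF8 in B cells, matched in 11 (26.2%, 13.9 to 42.0), against 13.5% of the list. Within 100 bp of the centre it matched in 4 (9.52%, 2.66 to 22.6), against 5.20% of the list, a share within that interval. Of the 18 motifs, only 1, this composite, had a list share outside the members' interval over whole regions. Within 100 bp of the centre only 1 did, the interferon response element. The intervals were not adjusted for the number of motifs. Of the 11 regions with the composite, 6 were in the CIITA cluster, which holds 11 of the 42 members: regions 5, 9, 10, 12, 13 and 14. In regions 9 and 10 it lay more than 100 bp from the centre. G and C content and the share of promoter regions both differed between the members and the list and were not matched in these shares. Their part in these shares was not tested. Among distal regions alone, the composite matched in 9 of 36 members, against 14.1% of the list's distal regions. The interferon response element matched in 8 of 36, against 17.0%.

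At the CIITA promoter, region 10 held the ETS-IRF composite at −130 bp and the interferon response element at −62 bp from its centre (negative towards the start of the chromosome), and region 12 an ETS-IRF composite at 41 bp. At SOCS1, region 40 held the interferon response element at 61 bp beside SP or KLF matches (GGGCGGGG) at 19 and 35 bp, all on the gene's strand, as the capitals in its printed sequence show. At DEXI, region 18 held 3 NFY matches (GCCAAT) on the gene's strand at −85, −57 and −32 bp. Region 19 of CLEC16A, with regions 15 and 36, held none of the 18 motifs.

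**Figure D5:**
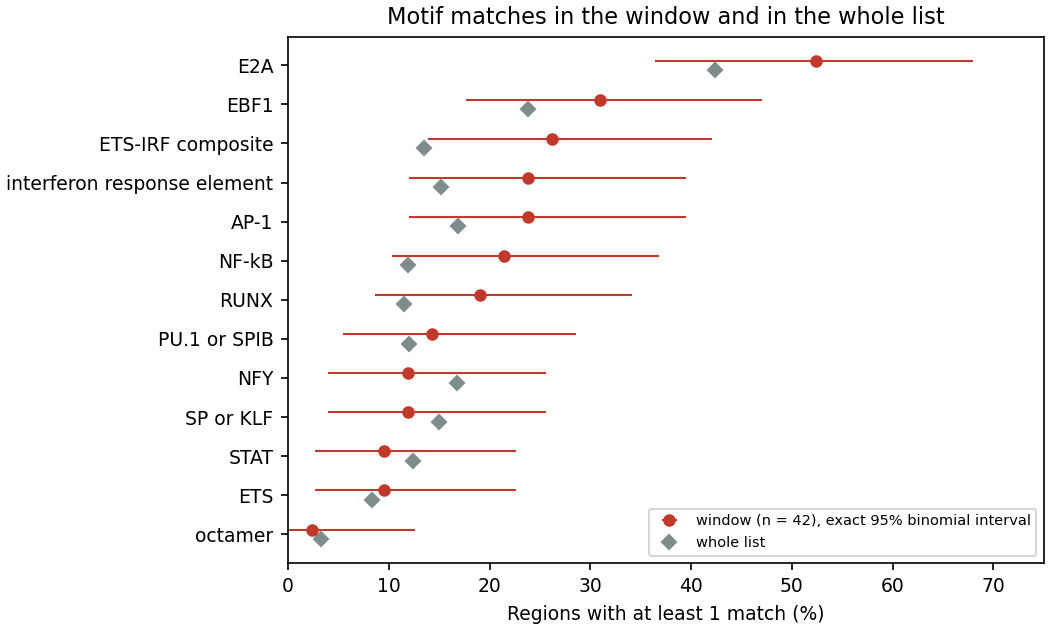
Percent of regions with at least 1 match of each motif, for the 42 members (points with exact 95% binomial intervals, counting error only) and for the whole list of 50000. The ETS-IRF composite stands at 26.2% (13.9 to 42.0) against 13.5%, just outside its interval. NF-kB stands at 21.4% (10.3 to 36.8) against 11.9%, a share within its interval. Most intervals are wide because 42 regions are few.

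NF-kB (GGNNTTTCC) matched in 9 members (21.4%, 10.3 to 36.8), against 11.9% of the list, a share within that interval. AP-1 (TGANTCA) matched in 10 (23.8%, 12.1 to 39.5), against 16.9%, also within its interval. All members with either motif were distal, and among distal regions of the list the shares were 12.3% and 20.8%. AP-1 matched in 3 of the 5 regions of CLEC16A intron 19 (27, 28 and 29) and in regions 21, 24 and 25 of other CLEC16A introns. E2A (CAGGTG) matched in 22 members (52.4%, against 42.3%), EBF1 (CCCNNGGG) in 13 (31.0%, against 23.8%) and RUNX (TGTGGTT) in 8 (19.0%, against 11.6%). PU.1 or SPIB (GNGGAAGT) matched in 6 (14.3%, against 12.0%) and ETS (CCGGAAG) in 4 (9.52%, against 8.34%). STAT (TTCNNNGAA), the element of the pathway that SOCS1 restrains, matched in 4 (9.52%, against 12.4%), none of them region 40. NFY and SP or KLF matched in 5 members each (11.9%, against 16.7% and 15.0%), and the octamer (ATGCAAAT) in 1 (2.38%, against 3.30%). Among the 36 distal members, NFY matched in 4 and SP or KLF in 3, against 15.3% and 4.77% of the list's distal regions. YY1 (AAGATGGC), NRF1 (CGCNTGCG), the cyclic AMP response element (TGACGTCA), MEF2 and CTCF matched in 0 of 42, against 3.30%, 6.61%, 1.27%, 5.26% and 2.30% of the list. Matches of different motifs overlapped in 4 members: EBF1 with NF-kB in region 9, EBF1 with PU.1 or SPIB in region 37, the ETS-IRF composite with STAT in region 13, and PU.1 or SPIB with STAT in region 39.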

How the data were processed

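Single GM12878 cells were profiled by ATAC-seq in 191 libraries, with no value per library in the data used here. The study's methods state that adapters were cut off and pairs aligned to hg19, that only unique, good-quality, non-duplicate nuclear reads were used, and that summits were called on aggregated cells, with the 50000 most significant retained. Bowtie2 2.1.0, Picard 1.79 and MACS2 (version not stated) are the tools in the submitters' processing notes. The score of a region is the authors' −log10 q-value as deposited, a unit taken from the caller's format and the values because no header states it. The methods also describe a filter on single libraries and do not say outright whether those it removed were in the pool. The list gives no reads, so weak accessibility below the last score kept cannot be told from none, and cells with more fragments count for more.

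Regions were placed by centre on GENCODE 44 mapped to GRCh37 and called promoter regions within 1 kb of any annotated protein-coding TSS. Motifs were matched on both strands of the reference, which is not masked, so repeat shares were not computed. No test was run, since 1 pooled list has no replicate. Density intervals are exact Poisson and intervals of shares exact binomial (Clopper-Pearson), at 95%. The interval of a median score comes from binomial order statistics. Functions were checked on simulated data. Alternatives changed the flank, the promoter limit, the cluster distance, the counting of summits and the motif window.

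Named are CIITA, DEXI, CLEC16A and SOCS1, the other protein-coding genes of the neighbourhood, the gene lists and the cell type markers, of which 1 is not reported here. The 2 long non-coding RNAs were named after their positions beside regions were seen. Given in full are the promoter regions, the 5 strongest others and the strongest of each cluster. The members, lists and motifs were chosen with earlier results of these data known. Software was scipy 1.17.1, pandas 2.3.3, numpy 2.4.6 and matplotlib 3.10.9 under Python 3.11.15.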

Additional observations from a re-analysis of the deposited data

How the results depend on the processing

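The 6 results were the count, density and median score of the regions, and the numbers at CIITA promoters, in CLEC16A introns and of clusters. Of 20 alternatives, 17 stayed within 1.5 times the reported value, up or down, and 3 moved further. Among the 17 were 22 clusters when joined at up to 5 kb, and 2 regions within 1 kb of the canonical CIITA start. With regions above the list's median score only, the density was 5.31 per 100 kb (8.57 with all), against 0.856 in the list. With a promoter limit of 2.5 kb, 6 regions lay at CIITA start sites (3 at 1 kb). Joining regions at up to 25 kb gave 7 clusters (16 at 10 kb). Within 100 bp of the centre, 13 of 18 motif counts were lower, 9 of them by more than 1.5 times. Counts can only fall or stay in this shorter stretch, so the falls do not bear on stability. The other 5 motifs had no match in any member. With the summits of 1 called peak counted once, 4 counts were lower, 0 of them by that much. No paired analysis was possible because all libraries form 1 group and no result comes from a test. The score of a region has no error, and counts of 42 regions leave wide intervals.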
